A study of Mus musculus with 3 samples.

Results

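The respiratory chain genes described here are the 106 of 32285 genes in the count tables whose symbols begin with those of the subunits of NADH dehydrogenase (Nduf), succinate dehydrogenase (Sdha to Sdhd), the cytochrome bc1 complex (Uqcr), cytochrome c oxidase (Cox4 to Cox8, without Cox6a2) and ATP synthase (Atp5), together with the 13 protein-coding genes of the mitochondrial genome. They comprise 84 nuclear subunit genes, of which 36 belong to complex I, 4 to complex II, 8 to complex III, 19 to complex IV and 17 to complex V. The symbol rule also took in 8 complex I assembly factors (Ndufaf) and 1 gene with a pseudogene symbol, Ndufb1-ps, both kept apart from the subunits. Ndufa4 carries a complex I name but is a subunit of complex IV and was counted there, with its relative Ndufa4l2.

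The cells were dendritic cells (DCs) of wild-type C57BL/6 mice, differentiated in vitro with FLT3L, the cytokine that drives DC development, and profiled cell by cell with the 10x Single Cell 3' v3 chemistry. There was 1 library per condition. The control was grown in 2 mM glutamine, the second culture in 50 µM glutamine, and the third in 2 mM glutamine with 1 µM DON, a glutamine analogue that inhibits glutamine-using enzymes. The number of mice behind each culture and any pooling are not given in the sources used here. With 1 library per condition no difference could be tested, the condition cannot be told apart from the library, and every interval given is an exact interval that covers counting error only.

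The inner mitochondrial membrane holds the respiratory chain. Complexes I and II pass electrons from NADH and succinate to ubiquinone, complex III passes them to cytochrome c and complex IV to oxygen, and complex V uses the resulting proton gradient to make ATP. Complexes I, III, IV and V are built from subunits of both genomes, whereas complex II is wholly nuclear. The mitochondrial genome is transcribed as long RNAs that are cut into shorter messengers. Nuclear factors such as NRF1, GABP (an ETS factor), YY1 and ERR proteins are known to act on promoters of nuclear subunit genes.

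The libraries held 89340379 UMIs in 10497 barcodes (control), 92002827 in 9817 (50 µM glutamine) and 87611658 in 8962 (DON). After filtering, 9540, 9326 and 8515 cells were used, with a median of 6656.5, 7694 and 7970 UMIs and a median mitochondrial share of 3.58%, 4.197% and 4.05% of UMIs. Pairs of libraries shared 20 to 31 barcodes. Clustering gave 26 clusters, of which 7 received no cell type name, and these held 18.5% of control cells, 39.4% at 50 µM glutamine and 27.7% with DON. Several of the unnamed clusters had DNA replication or mitosis genes, such as Mcm2 and Cdc20, among their top genes. The cells of those clusters are outside the named classes. The named classes used most were cDC1-like cells (1573, 323 and 800 cells in control, 50 µM glutamine and DON), cDC2-like cells (2127, 1269 and 1785) and pDC-like cells (2423, 1409 and 2000), after the type 1 and type 2 conventional and the plasmacytoid DCs. A level of 5 CPM means 5 UMIs when the UMIs of a class in a library are scaled to 1000000. In control, 12 of 12 cDC1 markers reached it in cDC1-like cells, 6 in cDC2-like and 5 in pDC-like cells. Of the 15 cDC2 markers, 15 reached it in cDC2-like, 10 in cDC1-like and 10 in pDC-like cells. Of the 14 pDC markers, 13 reached it in pDC-like, 8 in cDC1-like and 10 in cDC2-like cells. The classes were named from these marker lists, so the counts in the own class are not separate evidence for the names.

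The mitochondrial genome is compact, and the stretches where its reading frames run into each other are shown because these gene pairs share bases. In the mouse genome build GRCm38, mt-Atp8 and mt-Atp6, which encode the ATP synthase subunits made in the mitochondrion, overlap by 43 bases, from 7927 to 7969, within the stretch chrM:7906-7990. mt-Nd4l and mt-Nd4, complex I membrane subunits, overlap by 7 bases, from 10167 to 10173, within chrM:10146-10194. Both stretches are coding sequence on the plus strand. The capitals mark the start codon of the downstream gene and, after it, the stop codon of the upstream gene.
mt-Atp8 into mt-Atp6: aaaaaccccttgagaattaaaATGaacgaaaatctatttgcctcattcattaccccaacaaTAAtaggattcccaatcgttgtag
mt-Nd4l into mt-Nd4: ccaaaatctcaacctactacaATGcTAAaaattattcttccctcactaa

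In control cDC1-like cells the downstream partner took nearly all UMIs of each pair: mt-Atp6 stood at 5739 CPM and mt-Atp8 at 58.9 CPM, mt-Nd4 at 1634 CPM and mt-Nd4l at 183.5 CPM. With 1 UMI per captured molecule these levels are not divided by gene length. Because the genes of a pair share bases, these levels need not be those of separate messengers. Reads can also be shared with copies elsewhere: at least 50% of the 31-base words in the last 300 bases of the transcript occur in another annotated gene for 6 of the 13 mitochondrial genes (mt-Atp6, mt-Co1, mt-Co2, mt-Co3, mt-Nd3 and mt-Nd4l) and for 4 of 92 nuclear genes (Atp5h, Atp5g2, Ndufs5 and Cox7c). Their levels are uncertain to that extent. How the authors' counting treated such reads is not given in the sources used here.

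For the nuclear genes, the promoters of the 3 members that stand out most below are shown, cut at the earliest annotated transcript start. Ndufa4 was the nuclear subunit furthest above control at 50 µM glutamine in pDC-like and cDC2-like cells, Ndufv3 was the furthest below in all 3 DC classes, and Ndufb4 was the complex I subunit that was higher in mature DC-like than in cDC2-like cells. The capitals mark a match to the NRF1 motif, a palindrome with 1 free base. The sequences are from RefSeq, build GRCm38.p6, and lie at chr6:11907498-11907700 (minus strand), chr17:31519865-31520114 (plus strand) and chr16:37654454-37654618 (minus strand).
Ndufa4: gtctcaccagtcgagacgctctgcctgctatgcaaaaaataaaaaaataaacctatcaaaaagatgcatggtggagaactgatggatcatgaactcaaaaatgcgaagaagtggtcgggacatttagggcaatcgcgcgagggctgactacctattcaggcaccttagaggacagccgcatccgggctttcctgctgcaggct
Ndufv3: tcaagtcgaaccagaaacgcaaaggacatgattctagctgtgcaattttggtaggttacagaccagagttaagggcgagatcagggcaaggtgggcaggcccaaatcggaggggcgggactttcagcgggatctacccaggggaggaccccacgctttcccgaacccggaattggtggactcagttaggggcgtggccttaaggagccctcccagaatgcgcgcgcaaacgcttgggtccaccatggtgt
Ndufb4: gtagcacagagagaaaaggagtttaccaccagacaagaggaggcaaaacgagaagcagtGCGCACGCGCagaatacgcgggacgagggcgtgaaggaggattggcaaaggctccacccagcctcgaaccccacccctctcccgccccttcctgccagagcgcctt

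Promoters were matched for 68 nuclear members, and 4 motifs were searched on both strands of the uncut windows of 250 bases before the RefSeq start, in members and in all promoters alike. These windows can reach past the cut sequences printed above, and 5 of the 68 would be left with 0 bases by the cut. The NRF1 motif was in 12 of the 68 (17.65%, against 3.863% of 27025 promoters in the table) and the ETS core CCGGAAG in 11 (16.18% against 7.053%). The ERR half-site AAGGTCA was in 5 (7.353% against 4.052%) and the YY1 motif AAGATGGCG in 0 (against 0.6068%). Neither the cut nor the uncut window of Ndufa4 and of Ndufv3 holds any of the 4 motifs in these letters. A match describes the letters only.

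Among the 3 DC classes the nuclear subunit genes differed little in their share of UMIs, while the mitochondrial genes differed more. In control, the 84 nuclear genes summed to 24450.1 CPM in pDC-like, 23732 CPM in cDC2-like and 23329 CPM in cDC1-like cells. They were highest in progenitor-like cells (27551 CPM), lower in mature DC-like cells (19995 CPM) and lowest in neutrophil-like cells (12804 CPM). The 13 mitochondrial genes ranged from 15739 CPM in neutrophil-like to 48816 CPM in B lineage-like cells. Within the DC classes they stood at 45275 CPM in pDC-like, 33362 CPM in cDC2-like and 29994 CPM in cDC1-like cells, the same order as in both other libraries.

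**Figure D1:**
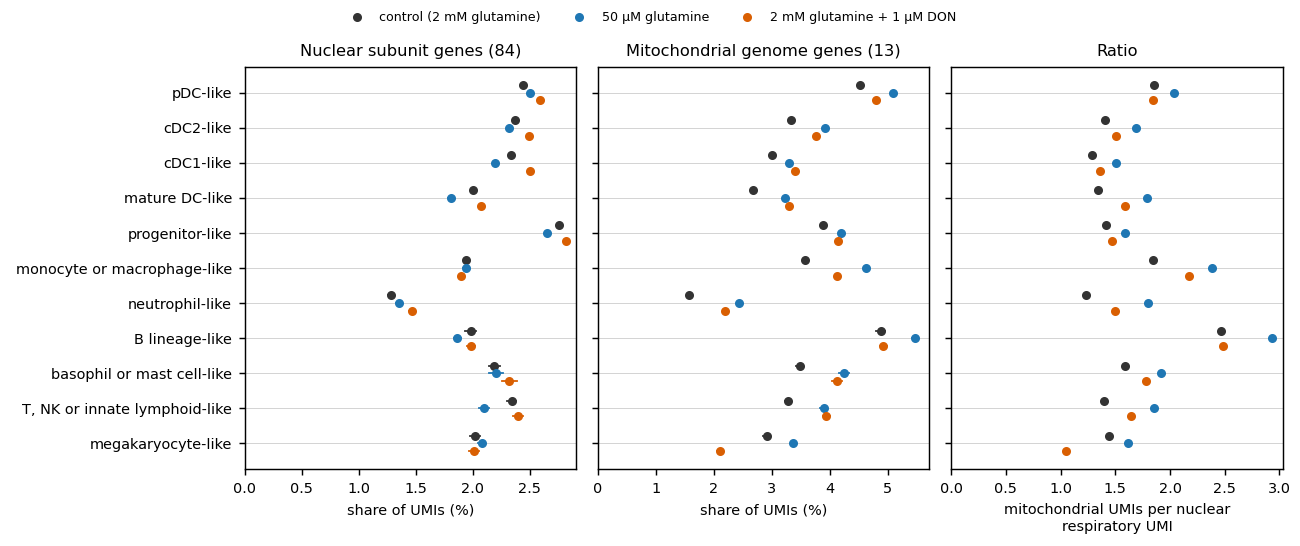
Shares of UMIs from the 84 nuclear subunit genes and the 13 mitochondrial genome genes (percent of the UMIs of a class, horizontal axes), and mitochondrial UMIs per nuclear respiratory UMI, in 11 named cell classes (vertical axis). Points are the 3 libraries, with bars for exact 95% Poisson intervals of counting error, mostly smaller than the points. No interval is drawn for the ratio, which is higher at 50 µM glutamine than in control in every class.

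The ratio of mitochondrial UMIs to nuclear respiratory UMIs sets the genomes against each other. At 50 µM glutamine it was above control in 11 of 11 named classes. It went from 1.29 to 1.502 in cDC1-like, from 1.41 to 1.69 in cDC2-like, from 1.85 to 2.03 in pDC-like and from 1.41 to 1.58 in progenitor-like cells. The gap was wider in mature DC-like cells, from 1.34 to 1.79, and in neutrophil-like cells, from 1.23 to 1.80. With DON it was 1.36, 1.51, 1.85 and 1.47 in cDC1-like, cDC2-like, pDC-like and progenitor-like cells. It was above control in 9 of 11 classes. The exceptions were pDC-like cells, at 1.85 in both libraries, and megakaryocyte-like cells, from 1.44 to 1.05 with 35 control and 21 DON cells. Within the pDC-like clusters the ratio went from 2.04 to 2.10, from 1.69 to 1.74 and from 1.700 to 1.696. The last of these held 613 of 2423 pDC-like cells in control and 707 of 2000 with DON. The part of this mix in the class value was not tested. Among the 23 clusters with at least 50 cells in each library, the ratio was above control in 22 at 50 µM glutamine and in 21 with DON. The median depth of whole libraries was higher under both treatments. Within the cDC1-like, cDC2-like and pDC-like classes the median UMIs per cell at 50 µM glutamine were lower. They were 9212 and 8572 in cDC1-like, 6626 and 6219 in cDC2-like and 5230.0 and 4999 in pDC-like cells. With DON the medians of these DC classes were higher, at 10566, 7625 and 6133. Other classes went either way at 50 µM glutamine, with 13514 and 13713.5 in progenitor-like and 5930 and 5725.5 in mature DC-like cells. The part of depth in the ratio was not tested.

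In cDC1-like cells at 50 µM glutamine, the nuclear subunits lay slightly below control and the mitochondrial genes slightly above. Of 77 nuclear subunit genes that reached 5 CPM in either library, 14 were above control, beside 64.3% of all 8965 genes measured. Their median log2 ratio was -0.11, against 0.09 over all genes measured. All 13 mitochondrial genes were above control, with a median of 0.12. No nuclear subunit passed 1.5-fold in either direction, where 3.15% of all genes were higher by that much and 0.915% lower. Of the 8965 genes, 5625 reached 20 CPM, and the rest carry larger counting error. Most nuclear subunits stood above that level, so the shares over all genes, here and below, are not matched for level. At a smaller limit, a log2 ratio of 0.32 in size, 5 nuclear subunits were lower and 0 higher, beside 4.55% and 18.6% of all genes. Complex I carried 4 of these 5: only 3 of its 36 genes were above control, and its summed level went from 6649 to 6043 CPM. Of the 8 complex I assembly factors, Ndufaf5 was past 1.5-fold lower, but at 121 UMIs in control and 8 at 50 µM glutamine (7.32 and 2.59 CPM) it rested on few counts.

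Single subunits show the scale in these cells, and they were not alike within a complex. Sdhb, the iron-sulfur subunit of complex II, went from 134 to 99.6 CPM (log2 -0.41). Uqcrb of complex III went from 348 to 282 CPM (-0.30), and Cox5b of complex IV from 499 to 425 CPM (-0.23). Sdha, the flavoprotein partner of Sdhb, was at 75.4 and 79.8 CPM (0.08, counting interval -0.12 to 0.28), which is within counting error. Cox4i1, the most abundant nuclear member, stood at 1031 and 1018 CPM. In the same cells 9 of the 12 cDC1 markers were lower at 50 µM glutamine (summed level 3488.5 CPM in control and 3171 CPM), and 13 of the 15 cDC2 markers were higher (1084 and 1604 CPM). The part of this in the ratios was not tested.

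In cDC2-like cells at 50 µM glutamine the distance between the genomes was larger. The nuclear median was -0.03, the mitochondrial median 0.27 and the median of all 9076 genes 0.12. Of the 13 mitochondrial genes, 12 were above control, beside 69.6% of all genes, and mt-Nd6 was at 20.3 and 19.6 CPM. No member passed 1.5-fold, beside 2.32% of genes higher and 1.17% lower. Past a log2 ratio of 0.32 in size, 2 nuclear subunits were higher and 1 lower, beside 18.4% and 3.57% of genes. mt-Nd1 went from 1321 to 1656 CPM (0.32), mt-Nd4 from 1829 to 2273 CPM (0.31), and mt-Cytb, the catalytic subunit of complex III, from 3051 to 3770 CPM (0.30). mt-Co1 and mt-Co2, the catalytic subunits of complex IV, were nearer to control, at 0.21 and 0.14. In the same cells 9 of 14 monocyte or macrophage markers were higher at 50 µM glutamine (summed level 1314 and 2783 CPM) and 9 of 12 neutrophil markers (83.7 and 143 CPM). Their part in the ratios was not tested.

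In pDC-like cells the nuclear genes lay near control. Their median was 0.04 at 50 µM glutamine (-0.051 in the largest cluster of the class), beside 0.24 for the mitochondrial genes and 0.15 for all 9156 genes. The mix of clusters in the class differed: the cluster with the highest nuclear level (26826 CPM in control) held 613 of 2423 cells in control and 590 of 1409 at 50 µM glutamine, with 27264 CPM there. The largest cluster in control had 23271 and 22702 CPM. The part of this mix in the class values was not tested. Complex II stood highest of the nuclear complexes, with a sum of 350 CPM in control and 414 CPM. Its 4 genes were all above control, and so were 73.1% of all genes measured. Sdhc, a membrane anchor of the complex, went from 42.9 to 60.0 CPM (0.44). Ndufs1, a core complex I subunit, went from 27.3 to 39.8 CPM (0.47), and Uqcrc1 of complex III from 69.7 to 87.7 CPM (0.31). Ndufa4 alone of the 77 nuclear subunits measured passed 1.5-fold (1 higher, 0 lower), where 4.1% of genes were that much higher and 1.56% that much lower. Past a log2 ratio of 0.32 in size, 3 nuclear subunits were higher and 1 lower, beside 23.6% and 4.6% of genes. The difference of 0.20 between the mitochondrial and nuclear medians of these cells was -0.011 after clustering the libraries separately, and 0.03 at a mitochondrial limit of 5% per cell. It was 0.07 at a limit of 20%, 0.12 with doublets kept and 0.29 in the largest cluster of the class. In cDC1-like cells it stayed between 0.22 and 0.27 and in cDC2-like cells between 0.23 and 0.36 over the alternatives tried.

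The levels above are relative to all UMIs. The median gene lay 0.09 to 0.15 above control at 50 µM glutamine in these 3 classes, so scaling by the median of ratios moved all values down. Under it the nuclear medians were below 0 in all 3 classes, with -0.14 in pDC-like cells, and the mitochondrial medians were 0.02 in cDC1-like, 0.14 in cDC2-like and 0.06 in pDC-like cells.

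**Figure D2:**
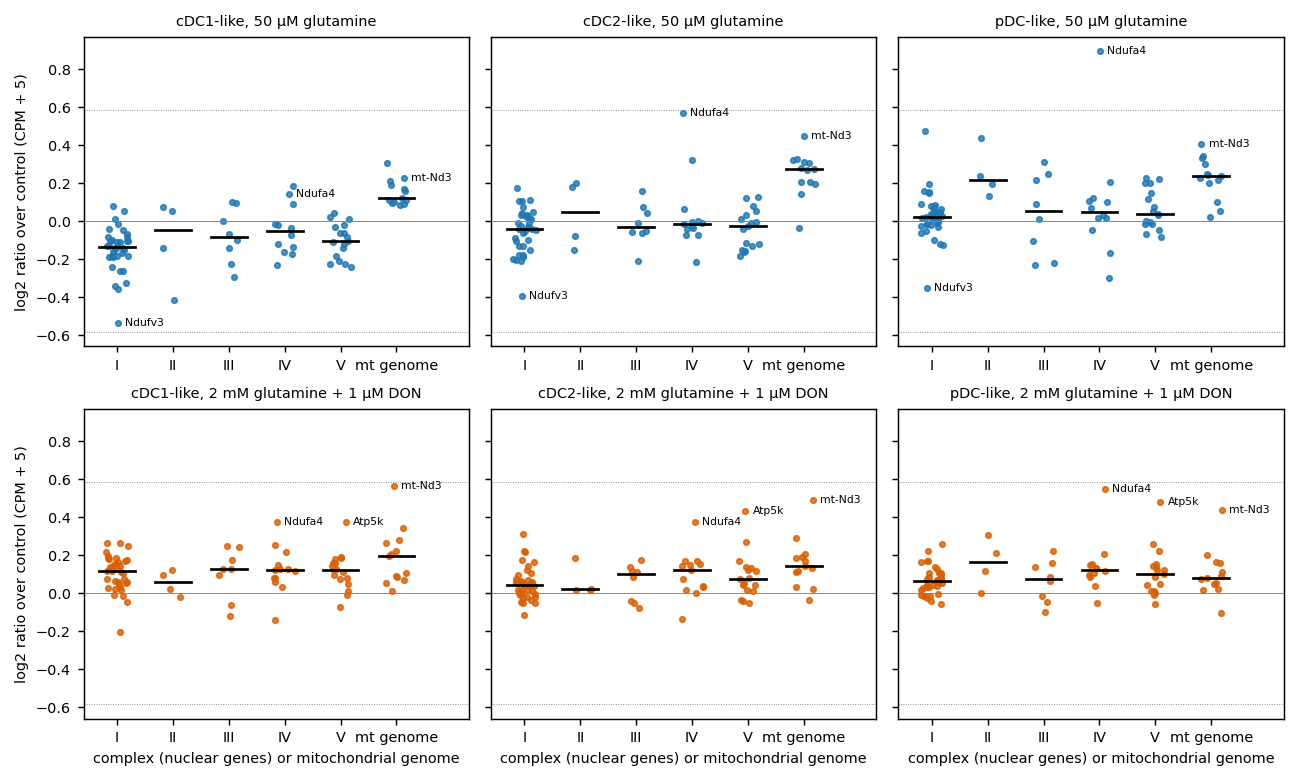
Log2 ratio of each measured member over control (vertical axis, 5 CPM added to both values) by complex for nuclear subunits and for the 13 mitochondrial genome genes, in cDC1-like, cDC2-like and pDC-like cells, at 50 µM glutamine (upper row) and with DON (lower row). Points are genes, black bars are medians and dotted lines mark 1.5-fold. At 50 µM glutamine Ndufa4 stands highest of the nuclear genes in cDC2-like and pDC-like cells, but not in cDC1-like cells. Ndufv3 is the lowest nuclear gene in each class at 50 µM glutamine, and mt-Nd3 heads the mitochondrial genes in 5 of the 6 panels.

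Ndufa4 in pDC-like cells at 50 µM glutamine was the largest single treatment difference of a nuclear subunit in these 3 classes. The gene (ENSMUSG00000029632, chr6:11900292-11907497, minus strand, protein coding) encodes a complex IV subunit. In pDC-like cells it went from 286 CPM in control to 537 CPM at 50 µM glutamine (log2 0.90, counting interval 0.84 to 0.97) and 421 CPM with DON (0.55). In cDC2-like cells the levels were 341, 509 and 444 CPM (0.57 and 0.38). In cDC1-like cells they were 444, 491 and 578 CPM, so that the DON ratio of 0.38 exceeded the 50 µM ratio of 0.14. Progenitor-like cells had the highest level in every library, 803, 818 and 869 CPM, with ratios of 0.03 and 0.11.

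The order of the classes for Ndufa4 was therefore tighter in the treated libraries than in control. cDC1-like over pDC-like cells gave 0.62 in control, 0.45 with DON and -0.13 at 50 µM glutamine. Ndufa4 was above control in 11 of 11 named classes under each treatment, and in 20 of 23 clusters at 50 µM glutamine and 22 of 23 with DON. Across the alternatives the pDC-like ratio at 50 µM stayed between 0.70 and 1.02. In pDC-like cells 11 of 13 progenitor markers were higher at 50 µM glutamine, with a sum of 596 CPM in control and 711 CPM. With DON 9 of the 13 were higher, with a sum of 580 CPM. In each library 7 of the 13 reached 5 CPM in pDC-like cells. In cDC2-like cells 11 of 13 progenitor markers were higher at 50 µM glutamine too (333 and 372 CPM). Their part in the Ndufa4 difference was not tested. Its relative Ndufa4l2 had 0, 2 and 2 UMIs in all cells of the 3 libraries.

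Ndufv3 was the lowest nuclear subunit at 50 µM glutamine in all 3 DC classes, and in progenitor-like cells among those of at least 5 CPM. The gene (ENSMUSG00000024038, chr17:31520115-31531331, plus strand, protein coding) encodes an accessory subunit of the part of complex I that binds NADH. In cDC1-like cells it went from 222 to 151 CPM (log2 -0.54, counting interval -0.69 to -0.41). It went from 216 to 163 CPM in cDC2-like cells (-0.40) and from 246 to 192 CPM in pDC-like cells (-0.35). In progenitor-like cells it went from 219 to 170 CPM (-0.35).

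With DON these cells had 220, 216, 239 and 209 CPM of Ndufv3, ratios between -0.06 and 0.00. Ndufv3 lay below control at 50 µM glutamine in 11 of 11 named classes and in 23 of 23 clusters, and with DON in 16 of 23. The cDC1-like ratio at 50 µM stayed between -0.63 and -0.46 over the alternatives. Its partners in the same part of complex I gave mixed values at 50 µM glutamine. In cDC1-like, cDC2-like and pDC-like cells the log2 ratios were -0.26, 0.11 and -0.01 for Ndufv1, -0.18, -0.19 and 0.02 for Ndufv2, and -0.10, 0.18 and 0.47 for Ndufs1. In cDC1-like cells all 3 partners were below control too, by less than Ndufv3, and in pDC-like cells Ndufs1 lay above control where Ndufv3 lay below.

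**Figure D3:**
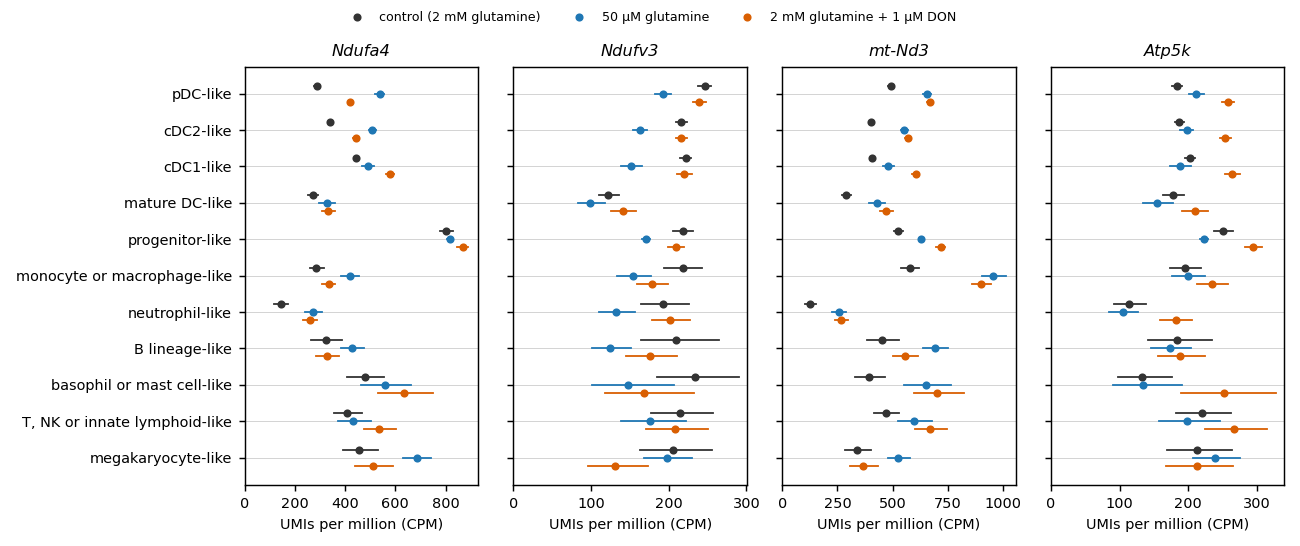
Levels of Ndufa4, Ndufv3, mt-Nd3 and Atp5k in CPM (horizontal axes) in 11 named cell classes and 3 libraries. Bars are exact 95% Poisson intervals of counting error; Ndufv3 is lower at 50 µM glutamine than in control in every class, and mt-Nd3 is higher under both treatments in every class.

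With DON, members of both genomes lay slightly above control. The nuclear medians were 0.12 in cDC1-like, 0.05 in cDC2-like and 0.08 in pDC-like cells, beside 0.08, 0.06 and 0.02 for all genes. The mitochondrial medians were 0.19, 0.14 and 0.08. The pDC-like values moved with the processing, the mitochondrial median to 0.030 at a mitochondrial limit of 5% and 0.038 at 20%, and the nuclear median to 0.027 in the largest cluster of the class. Scaled by the median of ratios, the nuclear median in cDC2-like cells was -0.0079. In cDC1-like cells 0 of the 12 cDC1 markers were higher with DON (summed level 3488.5 CPM in control and 2815 CPM). There, 12 of the 15 cDC2 markers were higher (1084 and 1473 CPM). The part of these markers in the ratios was not tested. Of 77 nuclear subunits measured in all 3 classes, 54 (70.1%) were above control in each class and 5 (6.49%) below in each, beside 38% and 9.74% of the 8021 genes measured in all 3. At 50 µM glutamine 7 (9.09%) were above and 20 (26%) below, beside 48.4% and 12.7% of 8282 genes. Both comparisons share the control library. No member passed 1.5-fold with DON in any of the 3 classes, where 0.4%, 0.0794% and 0.248% of genes were higher by that much and 1.06%, 0.261% and 0.608% lower, in the order cDC1-like, cDC2-like and pDC-like.

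At a log2 ratio of at least 0.32, the nuclear subunits above control with DON in cDC1-like, cDC2-like and pDC-like cells numbered 2 in each class, beside 6.42%, 1.77% and 2.08% of all genes. They were Ndufa4 and Atp5k in each class. Atp5k (ENSMUSG00000050856, chr5:108433244-108434448, minus strand) encodes subunit e of ATP synthase, which lies in the membrane where the enzyme forms dimers. It had 202, 187 and 183 CPM in control and 264, 254 and 258 CPM with DON in cDC1-like, cDC2-like and pDC-like cells (0.38, 0.43 and 0.48). At 50 µM glutamine it stood at 188, 198 and 212 CPM (-0.11, 0.08 and 0.20). It was above control with DON in 23 of 23 clusters and at 50 µM glutamine in 11 of 23.

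Ndufa3, an accessory complex I subunit, was the highest of its complex with DON, at 0.26, 0.31 and 0.26 in the same order. Ndufa6, another accessory subunit, was the lowest, at -0.20, -0.11 and -0.05, and was also below control at 50 µM glutamine (-0.10, -0.15 and -0.12). Uqcrh, the hinge protein of complex III, gave -0.12, -0.08 and -0.10 with DON. Ndufb1-ps, whose annotation calls it a non-coding RNA from a bidirectional promoter, gave 0.41, 0.31 and 0.44 with DON and 0.12, 0.09 and 0.24 at 50 µM glutamine.

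Among the mitochondrial genes, mt-Nd3 stood highest in each class with DON. The gene (ENSMUSG00000064360, chrM:9459-9806, plus strand) encodes a membrane subunit of complex I. In cDC1-like cells its levels were 408 CPM in control, 479 CPM at 50 µM glutamine and 605 CPM with DON (log2 0.23 and 0.56). They were 404, 553 and 569 CPM in cDC2-like cells (0.45 and 0.49) and 493, 656 and 670 CPM in pDC-like cells (0.41 and 0.44). It was above control in 23 of 23 clusters under either treatment. Of its 31-base words, 98.89% also occur in Gm28438, so its UMIs could not be assigned by sequence alone.

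The next complex I genes did not follow mt-Nd3 equally. mt-Nd1, with none of its 31-base words in another gene, had 1477 CPM in control and 1876 CPM with DON in cDC1-like cells (0.34), and 0.29 and 0.20 in cDC2-like and pDC-like cells. mt-Nd4 gave 0.09, 0.12 and 0.02 with DON in that order, and mt-Nd5 0.06, 0.03 and -0.10. At 50 µM glutamine mt-Nd4 gave 0.17, 0.31 and 0.24. mt-Nd6, the one protein gene on the opposite strand, was the least abundant, at 24.8, 20.3 and 21.9 CPM in control. In progenitor-like cells it went from 45.7 to 26.4 CPM at 50 µM glutamine (-0.69). The counting interval of the ratio without the added 5 CPM was -1.02 to -0.57. The other 12 mitochondrial genes there were above control, beside 61.3% of all genes. mt-Nd6 was the 1 member of 13 past 1.5-fold in those cells, beside 1% of genes lower and 1.8% higher. Neutrophil markers in progenitor-like cells summed to 3446 CPM in control, 2165 CPM at 50 µM glutamine (2 of 12 higher) and 6363 CPM with DON (9 of 12), beside 2710 CPM, 2058 CPM and 2218 CPM for the 13 progenitor markers. The part of these in the progenitor-like values was not tested.

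Mitochondrial RNA also separated cDC1-like from pDC-like cells. In control, 12 of the 13 genes were lower in cDC1-like cells, with a median log2 ratio of -0.50. The median was -0.02 for the nuclear subunits (0.14 when scaled by the median of ratios) and -0.13 for all 9367 genes. With that last median below 0, most of all genes measured were lower in cDC1-like cells too. Of the 13, 4 were at least 1.5-fold lower, and 19.9% of all genes were. mt-Nd5 had 275 and 544 CPM (-0.97), mt-Co1 4851 and 9190.4 CPM (-0.92) and mt-Nd4 1634 and 2639 CPM (-0.69) in cDC1-like and pDC-like cells. mt-Nd1 was nearer, at 1477 and 1712 CPM (-0.21). The medians were -0.57 at 50 µM glutamine and -0.40 with DON. With a mitochondrial limit of 5% per cell the control median was -0.38. The classes are clusters of these same cells, so these ratios are a description.

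**Figure D4:**
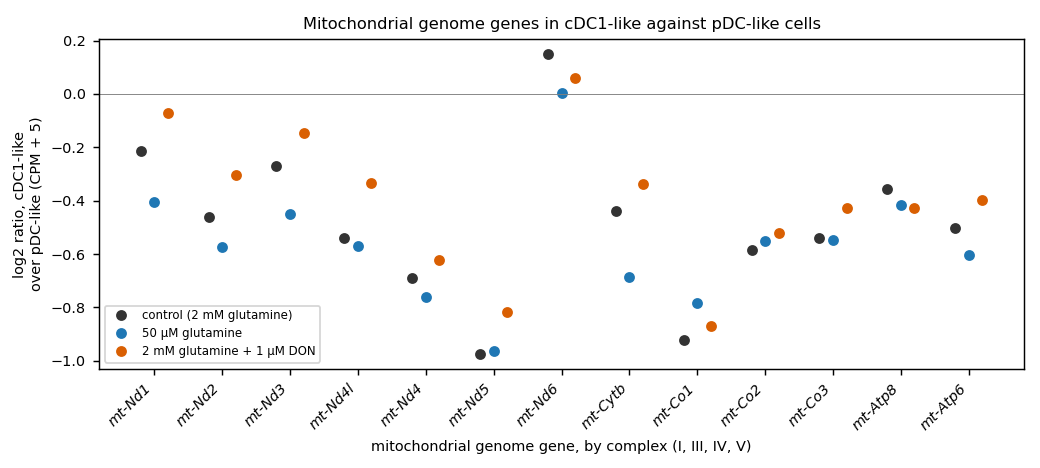
Log2 ratio of cDC1-like over pDC-like cells (vertical axis, 5 CPM added to both values) for the 13 mitochondrial genome genes (horizontal axis) in each of the 3 libraries. In every library mt-Nd5 and mt-Co1 are the lowest and mt-Nd6 is the gene at or above 0.

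A few nuclear members differed between these classes with the same sign in all 3 libraries. The control values are given first. Atp5md, a small ATP synthase subunit that helps form dimers, had 407 CPM in control cDC1-like cells, 253 CPM in cDC2-like and 262 CPM in pDC-like cells (0.67 over cDC2-like, 0.63 over pDC-like). The assembly factor Ndufaf6 had 19.0, 9.73 and 9.31 CPM in that order. Lower in cDC1-like than in pDC-like cells were Uqcrh (605 and 935 CPM, -0.62), Cox8a (-0.54) and Cox4i1 (1031 and 1469 CPM, -0.51). In control, 2 of 77 nuclear subunits were at least 1.5-fold higher in cDC1-like than in pDC-like cells and 2 lower, beside 14% and 19.9% of all genes. At 50 µM glutamine some of these differences were smaller: Atp5md over pDC-like cells was 0.38 and Uqcrh -0.30, beside 0.52 and -0.64 with DON.

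Against cDC2-like cells, the 13 mitochondrial genes had a median of -0.12 in cDC1-like cells of the control library, and the nuclear subunits -0.02. Atp5md was the 1 subunit of 78 at least 1.5-fold higher, beside 7.83% of genes. Progenitor-like over cDC1-like cells gave a nuclear median of 0.31 and a mitochondrial median of 0.44 in control, beside 0.16 for all 9361 genes. Of 78 nuclear subunits measured there, 8 were at least 1.5-fold higher and 1 lower, beside 19.5% and 11.7% of genes. They included Ndufab1, the mitochondrial acyl carrier protein (0.76), Cox5a (428 and 716 CPM, 0.73), Ndufv1 (50.0 and 84 CPM, 0.69) and Atp5a1, the alpha subunit of ATP synthase (0.74). Ndufa6 was the lower one (-0.59). The assembly factor Ndufaf2 had 21.4 and 56.8 CPM (1.23).

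Mature DC-like cells, the migratory form of DCs, had lower nuclear subunit levels than cDC2-like cells, and complexes I and II lay lowest. The 36 complex I genes summed to 4645 CPM in control mature DC-like cells and 6973 CPM in cDC2-like cells, with a median log2 ratio of -0.60, beside -0.26 for all 9343 genes. Of the 36, 19 were at least 1.5-fold lower and 1 higher, beside 31.6% and 15.7% of all genes. The medians of the other nuclear complexes were -0.56 (II), -0.31 (III), -0.14 (IV) and -0.38 (V), and that of the mitochondrial genes was -0.38. UMIs of complex I per UMI of complex IV were 0.726 in mature DC-like and 1.06 in cDC2-like cells.

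The members of complex I were not all alike in these cells. Ndufs8, a core iron-sulfur subunit, had 51.7 CPM in mature DC-like and 136 CPM in cDC2-like cells (-1.31), and Ndufb2 had 41.4 and 102 CPM (-1.20). Ndufa6 gave -1.09 and, in complex V, the c-ring gene Atp5g1 gave -1.10 (187 and 407 CPM). In the other direction, Ndufb4, an accessory membrane subunit, had 332 and 177 CPM (0.89), Uqcrh 1319 and 797 CPM (0.72) and Cox7c 852 and 639 CPM (0.41).

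These ratios kept their sign in the treated libraries. Ndufs8 gave -1.36 at 50 µM glutamine and -0.90 with DON, Ndufb4 gave 0.68 and 0.64, and Uqcrh 0.58 and 0.52. Complex I had 21 of 36 genes at least 1.5-fold lower at 50 µM glutamine (beside 35% of genes) and 14 with DON (beside 23.7%). Neutrophil markers in mature DC-like cells differed between libraries, with a sum of 328 CPM in control, 1540.2 CPM at 50 µM glutamine and 2978 CPM with DON over 12 markers, and 10 of the 12 were higher under each treatment. With DON, mature DC markers were lower (30602 and 22582 CPM, 3 of 12 higher), pDC markers higher (498 and 1465 CPM, 12 of 14 higher) and cDC2 markers higher (2375 and 3049 CPM, 14 of 15 higher). Their part in the difference between libraries was not tested.

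**Figure D5:**
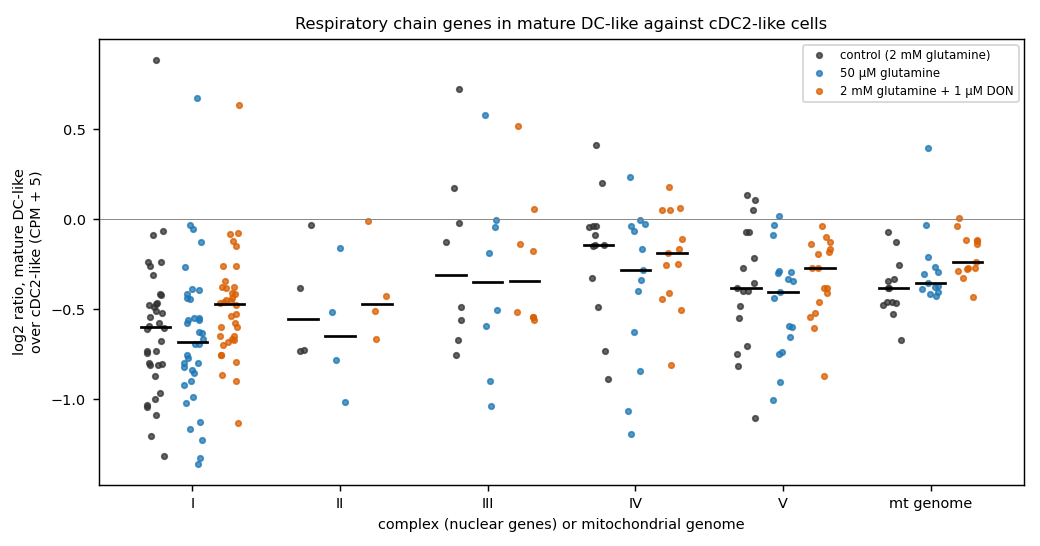
Log2 ratio of mature DC-like over cDC2-like cells (vertical axis, 5 CPM added to both values) for each measured member, by complex for nuclear subunits and for the mitochondrial genome genes, in each of the 3 libraries. Points are genes and black bars medians; the complex I and II medians are the lowest of the nuclear complexes in every library, and the point above 0 in complex I is Ndufb4.

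Isoforms known from other tissues ranged from 0 UMIs to low levels. Cox7b2, Cox8b and Cox8c had 0 UMIs in all cells used, against which a count of 3 UMIs per library is the limit that can be given. Cox4i2, the isoform of Cox4i1 known from lung, had 52, 26 and 33 UMIs in all cells. Cox7a1, the heart and muscle isoform, had 246, 125 and 260 UMIs, and Cox6b2, the testis isoform, 360, 905 and 400 UMIs. Over all cells Cox6b2 stood at 4.76, 10.5 and 4.96 CPM, and in progenitor-like cells at 8.99, 15.1 and 12.8 CPM. Of the 84 nuclear subunit genes, 79 reached 5 CPM in cDC1-like, cDC2-like or pDC-like cells of at least 1 library, and 5 did not.

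Genes that build and serve the chain were listed with the members. In cDC1-like cells at 50 µM glutamine, 0 of 78 mitochondrial ribosomal protein genes passed 1.5-fold, beside 3.15% of all genes higher and 0.915% lower. Of the 78, 25 were above control, beside 64.3% of all genes, with a median of -0.10. Of 40 assembly factors measured (Ndufaf excluded), 15 were above control, with a median of -0.05, where the median gene stood at 0.09. Cycs, which encodes cytochrome c, had 238, 180 and 271 CPM in control, 50 µM glutamine and DON. Of 14 citrate cycle genes, 7 were above control at 50 µM glutamine, beside 64.3% of all genes, and 14 with DON, beside 68.3%. The DON median was 0.20, where the median gene stood at 0.08, with Idh3a at 42.3 CPM in control and 55.9 CPM with DON and Idh2 at 54.9 and 71.8 CPM.

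Lrpprc and Atf5 were the genes of these lists that passed 1.5-fold at 50 µM glutamine in cDC1-like cells, both higher. Over all genes measured, 3.15% were higher by that much and 0.915% lower. Most genes of the lists did not pass, so these values describe single genes and not the lists. Lrpprc, which stabilises mitochondrial messenger RNAs, had 17.8 CPM in control and 29.5 CPM (0.60). It had 18.7 and 29.8 CPM in cDC2-like cells (0.55) and 19.9 and 34.9 CPM in pDC-like cells (0.68), and with DON 22.8, 22.7 and 22.0 CPM in that order. Atf5, a transcription factor of the mitochondrial stress response, had 2.30, 4.83 and 4.91 CPM in control and 7.46, 12.1 and 10.6 CPM at 50 µM glutamine. With DON it stood at 3.29, 4.48 and 5.14 CPM. In progenitor-like cells Atf5 had 6.45 CPM in control, 43.6 CPM at 50 µM glutamine and 5.57 CPM with DON. In the list of mitochondrial transcription and RNA genes that holds Lrpprc, 20 of 29 were above control in cDC1-like cells at 50 µM glutamine. That stands beside 64.3% of all genes. The median of the list was 0.12, close to the 0.09 of all genes.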

How the data were processed

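The authors deposited unnormalised UMI counts, a gene by barcode matrix for each of 3 libraries. Cell Ranger 6.0.0 made the matrices per the file headers, but version 3.1.0, with the mm10 genome, stands in the submitters' processing notes. Which version made the counts is not settled, and the gene annotation is not given in the sources used here. All 106 member identifiers were found in GENCODE vM21 (GRCm38), from which positions were taken. Promoters are from RefSeq, and members without an entry were not searched.

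Barcodes were kept with at least 1000 UMIs, 500 genes and no more than 10% of UMIs from the mitochondrial genome. Doublets were removed by the Scrublet method, written out here, in each library (7.98%, 3.35% and 4.19% marked in control, 50 µM glutamine and DON). The 50-bin histogram behind its threshold was chosen after a finer one marked almost no cells of the DON library. Counts were scaled to 10000 per cell, and 2000 variable genes, 30 principal components and 20 neighbours were clustered over all libraries (Leiden, resolution 1, leidenalg 0.10.2, scikit-learn 1.9.0, Python 3.11.15). A cluster took a name, with the ending -like, from 13 marker lists.

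UMIs were summed per class and library and scaled to CPM. Ratios are log2 with 5 CPM added, for genes of at least 5 CPM in either library. The ratio and summary code was checked on simulated counts. Intervals are 95% exact Poisson or binomial intervals (Clopper-Pearson). Intervals of ratios are of the counts without the added 5 CPM, so for genes of low level they are not centred on the ratio printed. Named members are the highest and lowest of each nuclear complex per class and treatment among those of at least 20 CPM, all mitochondrial genes, a set of 14 members, and up to 2 genes of each pathway list. Ndufb1-ps, Ndufb4, Ndufs8, Ndufb2, Cox7c, Cox8a, Ndufab1, Ndufaf2, Ndufaf5, Ndufaf6, Ndufv2, the genes with shared 3' sequence and the isoforms at or near 0 UMIs were added after their values were seen. Members and lists were chosen with earlier results of these data known. The 13 alternatives cover the cell filters, clustering, scaling, thinning, pseudocount and minimum level.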

Additional observations from a re-analysis of the deposited data

Results flagged for a closer look

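At 50 µM glutamine, 4 members lay on opposite sides of control in a pair of cell classes, with counting intervals that left out 0 in both, at least 1.1-fold on each side and a log2 ratio of at least 0.32 in size on 1 side. They are 4 of 100 members screened over 6 pairs of 4 classes (4%), beside 231 of 9396 genes (2.46%) by the same rule, and with DON 0 of 100 members met it, beside 1.33% of genes. With 1 library per condition the difference between the classes was not tested. Ndufb2, an accessory complex I subunit, gave a log2 ratio of 0.15 in pDC-like cells (97.4 and 108 CPM) and -0.36 in cDC1-like cells (118 and 90.5 CPM). Sdhb, the iron-sulfur subunit of complex II, gave 0.20 in pDC-like cells (162 and 186 CPM) and -0.41 in cDC1-like cells (134 and 99.6 CPM). Uqcrq, a small subunit of complex III, gave 0.34 in progenitor-like cells (400 and 509 CPM) and -0.14 in cDC1-like cells (303 and 275 CPM). mt-Nd6 gave 0.24 in pDC-like cells (21.9 and 26.8 CPM) and -0.69 in progenitor-like cells (45.7 and 26.4 CPM).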

How the results depend on the processing

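Each median over the nuclear or the mitochondrial genes was set against the median lower and median upper bound of its members' counting intervals. Under 13 alternatives 180 values stayed within these bounds and 28 did not. The 180 include values that did not change at all, which say nothing about robustness. Clustering without the respiratory genes gave every median of the main setting again. The changes of minimum level gave the same mitochondrial medians as the main setting. The bounds describe a typical member and not the counting error of a median, so staying within them is a loose mark. The mitochondrial medians kept their sign throughout, whereas 5 nuclear medians near 0 did not: those at 50 µM glutamine in cDC2-like and pDC-like cells, that with DON in cDC2-like cells, and those of cDC1-like over pDC-like and over cDC2-like cells. Scaling by the median of ratios gave mitochondrial medians at 50 µM glutamine of 0.022 (cDC1-like), 0.14 (cDC2-like) and 0.062 (pDC-like), and nuclear medians of -0.16 (cDC2-like) and -0.14 (pDC-like). With DON it gave 0.033 (nuclear) and 0.10 (mitochondrial) in cDC1-like cells and 0.080 (mitochondrial) in cDC2-like cells. For cDC1-like over pDC-like cells it gave 0.14 (nuclear) and -0.35 (mitochondrial), and over cDC2-like cells -0.078 (mitochondrial). Clustering each library on its own gave mitochondrial medians at 50 µM glutamine of 0.34 (cDC2-like) and 0.090 (pDC-like). For the pDC-like mitochondrial median at 50 µM glutamine, a limit of 20% gave 0.13, a limit of 5% 0.10, doublets kept 0.18 and resolution 0.6 0.20. The limit of 5% gave 0.12 for the mitochondrial genes with DON in cDC2-like cells, and -0.11 (nuclear) and -0.38 (mitochondrial) for cDC1-like over pDC-like cells. That last mitochondrial median was -0.52 with doublets kept, -0.53 at resolution 0.6, -0.52 when scaled to UMIs outside the mitochondrial genome, -0.47 in thinned cells and -0.56 in the largest cluster. Over cDC2-like cells it was -0.17 at resolution 0.6 and -0.088 in the largest cluster. The nuclear median in the largest pDC-like cluster at 50 µM glutamine was -0.051. The cause of these shifts was not tested. The mature DC-like and progenitor-like class ratios were not recomputed under the alternatives.

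No paired analysis was possible because each condition had 1 library, and for the same reason no leave-one-out value was computed. Intervals cover counting error only, and members under 5 CPM were not compared.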
